A study of Mus musculus with 7 samples.

Results

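Cytosolic ribosomal protein genes were taken from the gene table by symbol, as every Rpl or Rps gene that was neither an Rps6k kinase nor a pseudogene. The pattern found 82 of 31053 genes, 51 of the large and 31 of the small subunit. It leaves out Rpsa, Fau, Rack1, Rpl36al and Rps27rt, among other genes that also encode ribosomal proteins, and these were followed as a separate list. The cells came from the hippocampi of newborn (P0) mice, dissociated with trypsin and grown on poly-D-lysine in medium with serum and B-27, with no other treatment or mutation given in the labels. Droplet-based 3′ libraries were made at day in vitro (DIV) 1 from 1 sample, and at DIV3, DIV5 and DIV7 from 2 samples each. In all, 26709 cells of these 7 libraries passed limits of 500 or more detected genes and 10% or less mitochondrial counts. Nothing in the labels says whether the paired samples came from separate animals or cultures, so p-values measure the spread between libraries only.

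Each cytosolic ribosome is built from ribosomal RNA and a single copy of most of these proteins, so cells make the proteins in matched amounts. In mammals their mRNAs begin with a stretch of pyrimidines, the 5′ terminal oligopyrimidine (TOP) motif, through which the kinase mTORC1 and the RNA-binding protein Larp1 control their translation and storage. Growing and dividing cells invest heavily in ribosomes, and in neurons ribosomal protein mRNAs are also found in axons and dendrites. Transcript counts speak of mRNA and not of protein or of ribosomes.

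The start-site sequences of 6 members that recur below show how their pyrimidine stretches differ in length and place. Sequences are those of RefSeq for GRCm38.p6, 5′ to 3′ on the transcribed strand, with the annotated start as the first base after the 20 bases that precede it. The longest run of C and T is in capitals.
Rpl7a (chr2:26910787-26910826, + strand): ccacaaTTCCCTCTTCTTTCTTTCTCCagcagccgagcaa
Rpl12 (chr2:32961692-32961731, + strand): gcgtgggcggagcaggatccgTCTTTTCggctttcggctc
Rpl18 (chr7:45718051-45718090, + strand): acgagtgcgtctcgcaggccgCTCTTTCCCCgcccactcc
Rpl28 (chr7:4792945-4792984, + strand): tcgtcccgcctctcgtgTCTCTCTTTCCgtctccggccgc
Rps27 (chr3:90213629-90213668, - strand): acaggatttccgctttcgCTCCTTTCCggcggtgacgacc
Rps27l (chr9:66946066-66946105, + strand): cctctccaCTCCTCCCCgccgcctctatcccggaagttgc
The table held starts for 62 of the 82 members, 74 in all. A run of at least 8 C or T within the 20 bases either side of the start, on the transcribed strand, was present at 41.9% of these starts and at 16.1% of the 32851 starts in the table. On the other strand the shares were 6.76% for members and 17.7% for all starts. CGGAAG, on either strand and within the 300 bases of the entry, was present at 59.5% of member starts and at 16.9% of all starts. Rpl7a has the longest of the 6 runs printed, and Rps27l has its run ahead of the annotated start.

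Total UMIs per library ran from 36226566 to 114119537, and median UMIs per kept cell from 7142.5 at DIV1 to 20267 in DIV3 replicate 1. DIV7 replicate 1 stood apart in that the mitochondrial limit removed 17.7% of its barcodes, against 1.38% to 5.90% elsewhere. Pairs of libraries shared 12 to 37 barcodes, at most 0.883% of the smaller library. Clusters, made without the members, were named from marker genes and written as X-like. The named classes that entered tests were radial glia or astrocyte-like (8255 cells), glutamatergic neuron-like (4248), cycling (3430), ciliated-like (2269), fibroblast-like (2050), microglia or macrophage-like (942), choroid plexus epithelium-like (764), oligodendrocyte lineage-like (604) and GABAergic neuron-like (394), and 2765 cells stayed unnamed. The names are rebuilt here and need not match those of the study.

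Members held 17.9% of all UMIs at DIV1, 19.4% and 21.5% in the DIV3 libraries, 17.2% and 17.3% at DIV5, and 13.8% and 15.0% at DIV7. A small set led them in every library: the 5 highest held 13.96% to 16.8% of the members' UMIs. Rpl41, which encodes a very short basic peptide, was the highest, with 9572 ± 1717 CPM (SD, n = 7) and 5.27% of member UMIs, where CPM is a gene's UMIs scaled to the same total of UMIs for every library or for every class within it. Next came Rps2 (4389 CPM), Rpl13 (4018), Rps19 (3995) and Rps29 (3978). Because each UMI stands for 1 captured 3′ end, these levels are not scaled by length. Below Rpl5 (689) and Rpl13a (672) there was a gap to the paralogs Rpl7l1 (71.0), Rpl39l (0.732) and Rpl3l (0.167). Rpl10l, a testis-expressed paralog of Rpl10, had 0 UMIs of 374946432, which allows up to 0.008 CPM. Of the 82 members 81 had a UMI in every library from DIV3 on and 80 at DIV1.

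The members' share of UMIs fell with days in culture in radial glia or astrocyte-like cells, stayed high in fibroblast-like cells and rose in microglia or macrophage-like cells. In radial glia or astrocyte-like cells it was 22.8% at DIV1, 17.7% and 19.3% at DIV3, then 14.9% and 13.4% at DIV5, and 11.99% and 11.2% at DIV7. The days did not overlap. Across the 7 libraries the share fell by 1.87 percentage points a day (Pearson r = -0.98, exact permutation p = 0.00159, adjusted over 9 classes 0.00476; Spearman rho = -0.97, exact p = 0.00317, adjusted 0.00952). With the 2 libraries most distant in day left out, r stayed between -0.97 and -0.95. Without DIV1 alone r was -0.96 and the exact permutation p 0.0667 after adjustment. Of the 7 classes whose share changed with day over all libraries 0 passed without DIV1. The 6 remaining libraries allow no exact p under 0.0222 before adjustment, so that test could hardly pass and does not decide whether the trends need DIV1. Single cells moved together: the quartiles were 8.74%, 11.1% and 13.9% in DIV7 replicate 1, against 20.4%, 22.9% and 25.1% at DIV1.

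**Figure D1:**
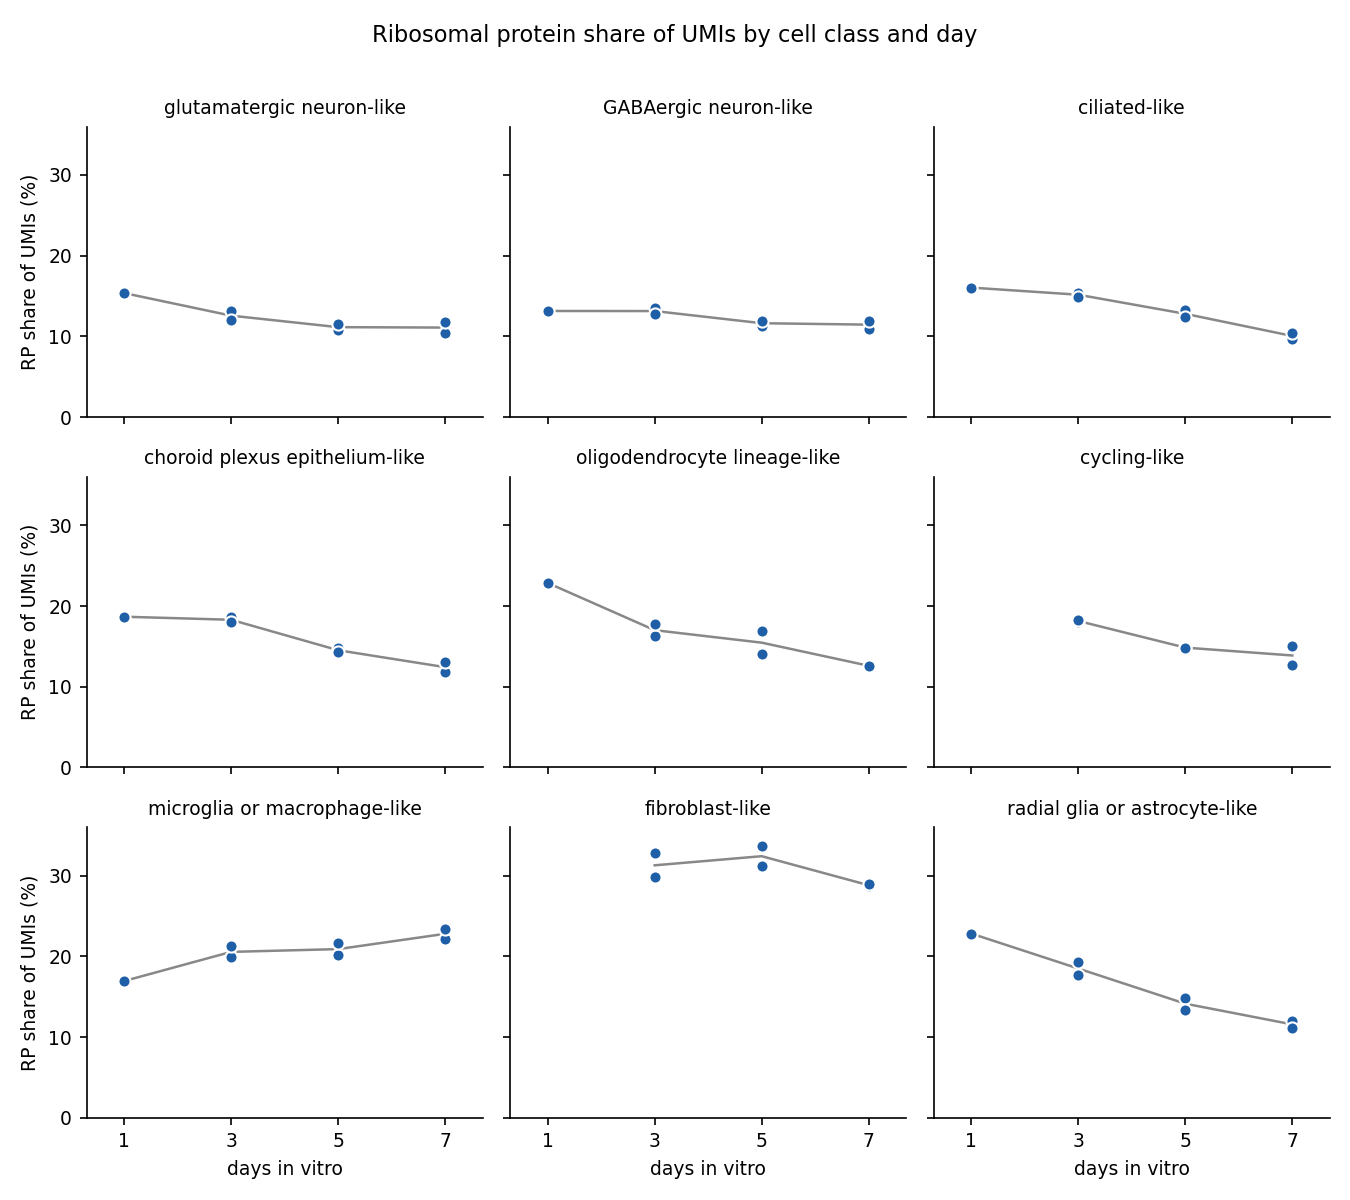
Share of a class's UMIs in a library held by the 82 cytosolic ribosomal protein genes (vertical axis, percent) at DIV1, DIV3, DIV5 and DIV7, in 1 panel per class. Each point is 1 library and lines join the means of the days; radial glia or astrocyte-like cells lie at 11.99% and 11.2% at DIV7, against 22.8% at DIV1, while microglia or macrophage-like cells reach 22.1% and 23.4%.

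The same measure fell in both epithelial classes. Ciliated-like cells had 16.04% at DIV1, 15.4% and 14.9% at DIV3, then 13.2% and 12.4% at DIV5, and 9.69% and 10.4% at DIV7 (r = -0.97, exact permutation p adjusted 0.00476; -1.08 points a day). Choroid plexus epithelium-like cells had 18.7%, then 18.6% and 18.0%, 14.8% and 14.3%, and 11.8% and 13.0% on the same days (r = -0.95, exact permutation p adjusted 0.00476). In both classes every DIV7 library lay below every DIV5 library. With the 2 libraries most distant in day left out, r was -0.98 in ciliated-like cells and -0.99 to -0.96 in choroid plexus epithelium-like cells. Oligodendrocyte lineage-like cells had 22.9% at DIV1, 16.2% and 17.8% at DIV3, then 14.01% and 16.9% at DIV5, and 12.6% in the 1 DIV7 library with enough cells (r = -0.91, exact permutation p adjusted 0.0333; rho = -0.85, adjusted 0.0571), with r = -0.55 without the 2 farthest libraries. Cycling cells had 18.0% and 18.3% at DIV3, then 14.9% and 14.8% at DIV5, and 12.7% and 15.0% at DIV7 (r = -0.89 over 6 libraries, exact permutation p adjusted 0.075), which did not pass.

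Neuron-like classes had the lowest shares at DIV1 of the classes tested, and fell by fewer points a day than the classes above. Glutamatergic neuron-like cells had 15.4% at DIV1, 13.1% and 12.04% at DIV3, then 10.8% and 11.5% at DIV5, and 10.4% and 11.8% at DIV7. The DIV5 and DIV7 libraries overlapped, and the slope was -0.633 points a day (r = -0.84, exact permutation p = 0.0111, adjusted 0.02; rho = -0.83, adjusted 0.0571). With the 2 libraries most distant in day left out, r was -0.89 to -0.51. This class too changed its clusters: of 1132 cells at DIV1, 452 and 652 were in a cluster led by Prox1 and one led by Grp, which held 7 and 14 and 1 and 1 cells at DIV7. Within the Nrgn and Kcna1-led cluster the share was 12.3% and 11.03% at DIV3, then 10.97% and 10.4% at DIV5, and 11.4% and 12.8% at DIV7, with the days overlapping. GABAergic neuron-like cells, 25 to 125 a library, had 13.1%, then 13.6% and 12.7%, 11.3% and 11.96%, and 10.9% and 11.96% on the same days (r = -0.82, exact permutation p adjusted 0.0408; rho = -0.84, adjusted 0.04), with r between -0.91 and -0.70 without the 2 farthest libraries.

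Microglia or macrophage-like cells rose. They had 16.9% at DIV1, 19.9% and 21.2% at DIV3, then 20.2% and 21.6% at DIV5, and 22.1% and 23.4% at DIV7, or 0.818 points more a day (r = 0.88, exact permutation p = 0.00794, adjusted 0.0179; rho = 0.90, adjusted 0.0286). DIV1 lay below every later library, and both DIV7 libraries above all others. Without the 2 farthest libraries r was 0.63 to 0.87. The trend did not pass without DIV1 (r = 0.76, exact permutation p adjusted 0.129) or without DIV7 replicate 2 (r = 0.83, adjusted 0.0571). Within each of the 7 libraries the cells above the median depth held a larger share than those below it, by 0.837 to 5.41 points. Depth thus moved with this share, and its part in the rise was not tested. In radial glia or astrocyte-like cells the same difference was -0.267 to 0.974 points. In fibroblast-like cells it was -0.217 and -0.407 points at DIV3, then -0.399 and 2.43 at DIV5, and 3.77 and 5.32 at DIV7. It also reached 2.93 points in cycling cells, in DIV7 replicate 2. Fibroblast-like cells held the highest share of the classes tested in each of their 6 libraries, 29.8% and 32.8% at DIV3, then 33.7% and 31.1% at DIV5, and 28.7% and 29.0% at DIV7, with no trend past the threshold (r = -0.54, exact permutation p adjusted 0.311).

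A share can change through the members or through everything else, so the median counts per cell are given beside it. Radial glia or astrocyte-like cells held a median of 2127 member UMIs at DIV1, 3516.5 and 2556 at DIV3, then 1716 and 1066 at DIV5, and 1327 and 1039.5 at DIV7. Their other non-mitochondrial UMIs numbered 6921 at DIV1, 15970 and 10270 at DIV3, then 9633 and 6715 at DIV5, and 9587 and 8165.5 at DIV7. Member counts at DIV7 were thus below those at DIV1 while the remainder was above it. In glutamatergic neuron-like cells both counts were higher at DIV7 than at DIV1: 1271 and 1923 member UMIs at DIV7 and 821.5 at DIV1, and 9741 and 15909.5 other UMIs at DIV7 and 4220.5 at DIV1. Depth differed between libraries, so these counts are a description. The mitochondrial share of radial glia or astrocyte-like cells also moved with day, with 2.69% at DIV1, 4.93% and 6.06% at DIV3, then 6.67% and 6.65% at DIV5, and 7.33% and 6.29% at DIV7. Its part in the fall of the members was not tested.

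Radial glia or astrocyte-like cells were made of different clusters on different days, so their fall mixes a change within clusters with a change of clusters. Of the 885 cells at DIV1, 875 were in a cluster led by Hes5, and of the 1338 cells of DIV3 replicate 1, 1268 were in a cluster led by Lcn2 (17.6% there) that held 3 and 0 cells at DIV7. The Hes5-led cluster had 22.9% at DIV1, 23.6% and 23.2% at DIV3, and 21.8% in DIV5 replicate 2, so within it the share did not fall between DIV1 and DIV3. In 2 clusters that span later days it did fall. In the largest (2694 cells, led by Wisp2 and C1ql3) it was 21.1% (24 cells) and 18.9% at DIV3, then 15.3% and 15.99% at DIV5, and 13.0% and 14.9% at DIV7. In the cluster led by the astrocyte genes Slc1a2, Ntsr2 and Aqp4 it was 8.87% and 9.95% at DIV7, against 12.01% and 12.6% at DIV5. In these 2 clusters no value at a later day reached one of an earlier day.

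With fewer cells passing stricter limits, of at least 1000 genes and at most 5% mitochondrial UMIs, the fall in radial glia or astrocyte-like cells was smaller. The share was then 22.9% at DIV1, 18.3% and 20.8% at DIV3, then 16.1% and 15.3% at DIV5, and 14.2% and 13.4% at DIV7. Over all cells the direction turned, with 18.1% at DIV1, 20.2% and 24.3% at DIV3, then 22.0% and 20.8% at DIV5, and 22.0% and 19.4% at DIV7. The strict limits kept 566 cells of DIV7 replicate 1, of which 76 were radial glia or astrocyte-like, against 880 of 2955 under the limits used elsewhere.

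Set against radial glia or astrocyte-like cells of the same library, fibroblast-like cells stood 16.1 ± 2.69 points higher (30.8 ± 2.06% against 14.7 ± 3.21%, SD, n = 6 libraries, higher in 6 of 6; exact paired sign-flip p = 0.0312, the smallest that 6 libraries allow, adjusted over 8 classes 0.0625). Ciliated-like cells stood lower in 7 of 7 libraries (13.2 ± 2.47% against 15.9 ± 4.24%, a difference of -2.74 ± 2.14 points; exact p = 0.0156, the smallest possible, adjusted 0.0625). Glutamatergic neuron-like cells averaged 12.1 ± 1.67% and were lower in 6 of 7 (-3.75 ± 3.00 points, exact p adjusted 0.0625), and GABAergic neuron-like cells likewise (-3.67 ± 3.57 points, exact p adjusted 0.0625). Microglia or macrophage-like cells averaged 20.8 ± 2.08% and were higher in 6 of 7 (4.89 ± 6.14 points, exact p adjusted 0.15). No class passed the adjusted threshold on the share alone. For choroid plexus epithelium-like, cycling and oligodendrocyte lineage-like cells the mean differences were -0.298, 0.887 and 0.188 points.

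The difference from radial glia or astrocyte-like cells changed with day. Microglia or macrophage-like cells were at 10.2 and 12.3 points at DIV7 and at -5.89 points at DIV1, and the difference rose with day across the 7 libraries (r = 0.97, exact permutation p adjusted over 8 classes 0.00847). Glutamatergic neuron-like cells were at -1.59 and 0.626 points at DIV7 and at -7.46 points at DIV1 (r = 0.92, exact permutation p adjusted 0.00847). GABAergic neuron-like cells were at -1.04 and 0.798 points at DIV7 and at -9.68 points at DIV1 (r = 0.94, exact permutation p adjusted 0.00847). Without DIV1 the adjusted exact p was 0.0593 in each of these 3 classes, where 6 libraries allow no exact p under 0.0222 before adjustment. This test was added after the shares had been seen.

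**Figure D2:**
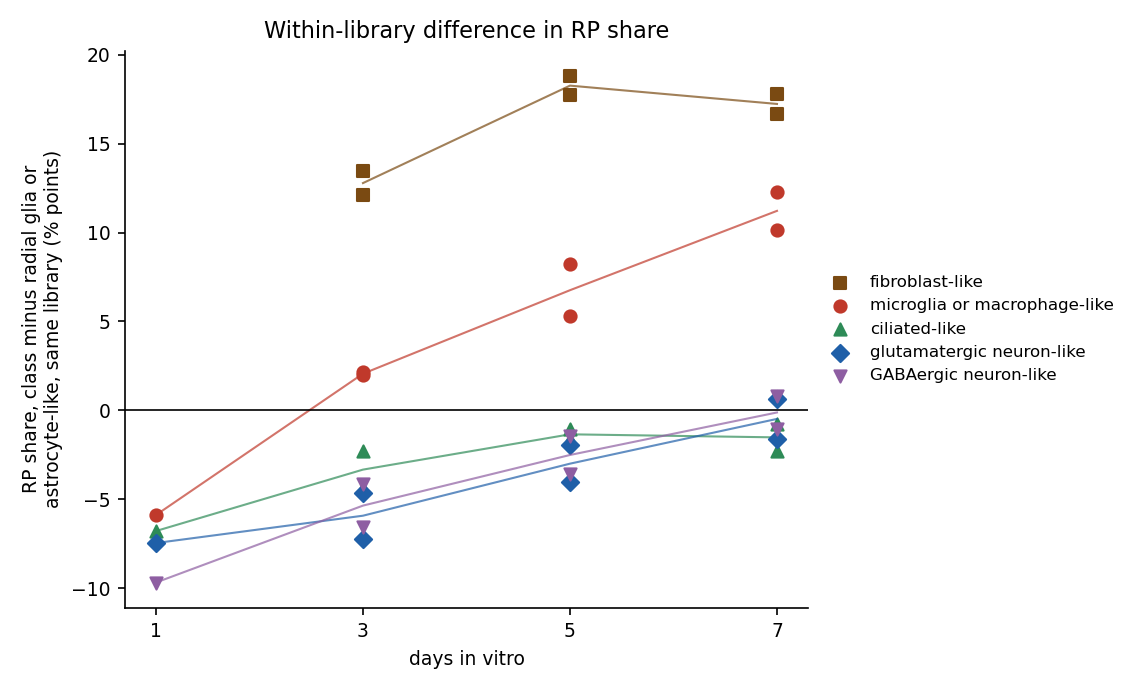
Member share of a class minus that of radial glia or astrocyte-like cells in the same library (vertical axis, percentage points) by day in vitro (horizontal axis) for 5 classes, with points for libraries, lines through the means of the days and 0 marked. Fibroblast-like cells lie above 0 in all 6 libraries, and microglia or macrophage-like cells are at 10.2 and 12.3 at DIV7, against -5.89 at DIV1.

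Between DIV7 and DIV3, tested gene by gene, the members fell together in radial glia or astrocyte-like, ciliated-like, cycling and choroid plexus epithelium-like cells. In radial glia or astrocyte-like cells 45 of 79 tested members were lower at DIV7 and 0 higher (edgeR quasi-likelihood test, Benjamini-Hochberg adjusted p under 0.05 over 14467 genes), against 6.7% of all genes lower and 5.99% higher. Their median log2 change was -0.91, against 0.05 over all genes tested, and large and small subunit members had medians of -0.92 and -0.90. For 69 members both DIV7 libraries lay below both DIV3 libraries, as they did for 24.7% of all genes. Nearly all cells of DIV3 replicate 1 came from the Lcn2-led cluster, so for that library a difference of cluster and a difference of day cannot be told apart. With 2 libraries a group, each library weighs on this count: without DIV3 replicate 1, DIV7 replicate 1 or DIV7 replicate 2 it was 0, with medians of -0.81, -0.89 and -0.91, where the lone library of a day was assumed to vary like the other groups. Under the stricter cell limits 24 members passed. The shares of all genes printed here and below are those of the main fit. They are not given for counts under other limits, scales, blocks or sets of libraries.

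**Figure D3:**
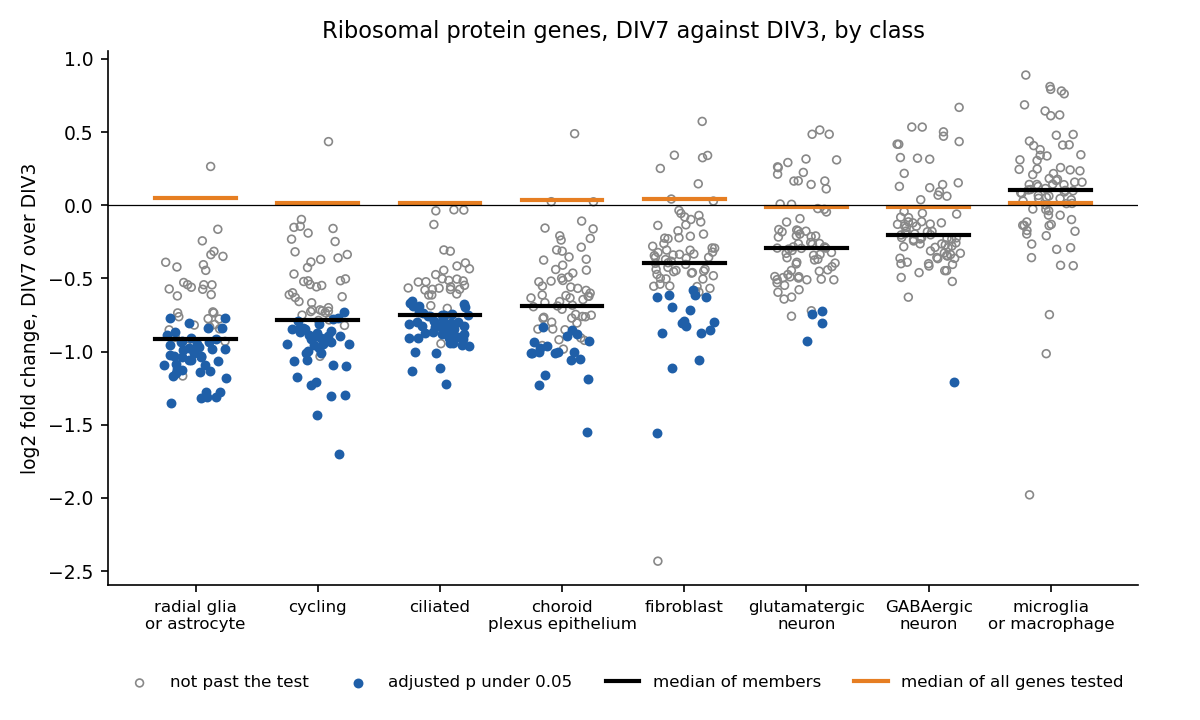
Log2 change between DIV7 and DIV3 of each tested member (vertical axis) in 8 classes, from edgeR fits over all genes. Filled blue points passed an adjusted p of 0.05, open grey points did not, the black bar is the members' median and the orange bar that of all genes tested; the members' median is -0.91 in radial glia or astrocyte-like cells and 0.11 in microglia or macrophage-like cells.

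Large subunit members led in radial glia or astrocyte-like cells. Rpl18 had 778 and 736 CPM at DIV7, against 1892 and 1639 at DIV3 (log2 change -1.35, SE 0.21, edgeR adjusted p = 0.0238). Rpl12, at the base of the ribosomal stalk where translation factors bind, had 587 and 618 at DIV7, against 1411 and 1356 at DIV3 (-1.32, SE 0.22, adjusted p = 0.0247). Both DIV7 values were below the DIV3 values for each gene, and the DIV1 library was higher still, with 2877 for Rpl18 and 2351 for Rpl12. Rpl8 had 1182 and 1014 CPM at DIV7, against 2621 and 2343 at DIV3 (-1.31, SE 0.20, adjusted p = 0.0238). Rpl7a, whose start carries the longest run printed above, had 465 and 467 at DIV7, against 1068 and 1007 at DIV3 (-1.28, SE 0.20, adjusted p = 0.0242). Rpl7l1, a low paralog of Rpl7, had 48.3 and 46.7 at DIV7, against 111 and 106 at DIV3 (-1.31, adjusted p = 0.0247). Fitted changes use trimmed-mean (TMM) scaling and so differ from the ratio of the printed values: in radial glia or astrocyte-like cells the members' median was -0.78 with total counts as the scale.

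Rps6, the small subunit protein that S6 kinases phosphorylate, was followed as a textbook member, not for its change. It had 1229 and 796 CPM in radial glia or astrocyte-like cells at DIV7, against 1861 and 1716 at DIV3. In microglia or macrophage-like cells it had 2893 and 2240 at DIV7, against 2235 and 2255 at DIV3. The days were apart in radial glia or astrocyte-like cells and overlapped in microglia or macrophage-like cells.

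In ciliated-like cells 47 of 79 members were lower at DIV7, against 7.34% of all genes (members' median -0.75), and in cycling cells 39 of 79, against 10.8% (median -0.78). In choroid plexus epithelium-like cells 20 of 79 were lower, against 5.65% (-0.69), and 39 with the replicate number as a block. None was higher in these classes, where 8.48%, 9.3% and 5.07% of all genes were. Rpl12 was among the most changed in each: it had 446 and 565 CPM in ciliated-like cells at DIV7, against 1216 and 1051 at DIV3 (-1.22, SE 0.22, edgeR adjusted p = 0.00563). In choroid plexus epithelium-like cells it had 505 and 610 at DIV7, against 1650 and 1445 at DIV3 (-1.55, SE 0.26, adjusted p = 0.0121). In cycling cells it had 620 and 838 at DIV7, against 1633 and 1532 at DIV3 (-1.43, adjusted p = 0.00666). DIV7 and DIV3 were apart in all 3 classes. Rpl7l1 fell most in cycling cells, with 44.0 and 39.5 at DIV7, against 115 and 103 at DIV3 (-1.70, SE 0.23, adjusted p = 0.003). In DIV3 replicate 1, 164 of 175 ciliated-like and 1215 of 1241 cycling cells were each in a single cluster that held 2 and 2 ciliated-like and 6 and 1 cycling cells at DIV7. Without DIV3 replicate 1 the counts were 0 in ciliated-like, 10 in cycling and 0 in choroid plexus epithelium-like cells, without DIV7 replicate 1 they were 0, 1 and 0, and without DIV7 replicate 2 they were 10, 11 and 0. Without DIV5 replicate 1 or 2, which only share the estimate of spread, 19 members passed in cycling cells.

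In fibroblast-like cells 17 of 80 members were lower at DIV7 (median -0.39), where 12.4% of all genes were lower and 12% higher. With the replicate block 35 passed, for which no share of all genes is given. Rps2, the second highest member, had 4719 and 4888 CPM at DIV7, against 8863 and 8926 at DIV3 (-1.11, SE 0.17, edgeR adjusted p = 0.00792). Rpl7l1 had 34.8 and 39.9 at DIV7, against 110 and 76.3 at DIV3 (-1.56, SE 0.25, adjusted p = 0.00856). Both genes separated the days. Of the remainder, Rpl12 (-1.06), Rpl7a (-0.88) and Rpl18 (-0.87) were next. In DIV3 replicate 1, 439 of 443 cells were in a cluster that held 14 and 12 cells at DIV7. Without DIV3 replicate 1 the count was 4, without DIV3 replicate 2 27, without DIV7 replicate 1 0 and without DIV7 replicate 2 1, and with total counts as the scale it was 9 (median -0.17).

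Few members changed in the neuron-like classes and none in microglia or macrophage-like cells. In glutamatergic neuron-like cells 4 of 79 were lower at DIV7 and 0 higher, against 2.94% and 5.54% of all genes (median -0.29), and 8 with the replicate block. Rpl7a had 464 and 509 CPM at DIV7, against 960 and 750 at DIV3 (-0.80, SE 0.19, edgeR adjusted p = 0.0272). Rpl28, with a run of 11 C and T across its start, had 597 and 668 at DIV7, against 1215 and 914 at DIV3 (-0.74, SE 0.19, adjusted p = 0.0379). Rpl11, which with Rpl5 binds 5S ribosomal RNA and the p53 regulator Mdm2, had 958 and 1133 at DIV7, against 2017 and 1462 at DIV3 (-0.72, SE 0.20, adjusted p = 0.0463). The fourth was Rps27l, described below. The DIV7 values lay below the DIV3 values for each of these. Without DIV3 replicate 1, DIV7 replicate 1 or DIV7 replicate 2 the count was 0, without DIV3 replicate 2 it was 31, and without DIV5 replicate 1 or 2 it was 2. In GABAergic neuron-like cells 1 of 79 (Rps27l) was lower and 0 higher, against 0.682% and 1.64% of all genes, with a median of -0.20.

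In microglia or macrophage-like cells 0 of 80 members passed in edgeR, as did 0% of all genes, and 0 in DESeq2. At an unadjusted p under 0.05 there were 3 higher and 3 lower members, and 1886 of the 10851 genes tested passed that limit. The median was 0.11, and both DIV7 libraries lay above both DIV3 libraries for 30 members, against 25% of all genes. Between DIV3 and the single DIV1 library, 0 members passed in glutamatergic neuron-like cells in edgeR and 0 in DESeq2, with a median of -0.37. Of all genes 0.284% were lower in edgeR. In radial glia or astrocyte-like cells 0 members passed in edgeR and 4 in DESeq2, with a median of -0.38. There 0% of all genes were lower in edgeR.

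Across the days, class against class, nearly every member was higher in fibroblast-like than in radial glia or astrocyte-like cells. Of 79 tested, 78 were higher and 0 lower (edgeR with library as a term, adjusted p under 0.05), against 36.2% of all genes higher and 32.8% lower, with a median log2 difference of 1.46. Rpl10, a large subunit protein that joins late in assembly, averaged 3770 ± 395 CPM in the 6 fibroblast-like libraries, against 1153 ± 178 CPM in radial glia or astrocyte-like cells of the same libraries (2.07, SE 0.10, adjusted p = 1.98e-07). Rps20, a protein of the small subunit's head, averaged 4500 ± 567 CPM in fibroblast-like cells, against 1446 ± 377 CPM in radial glia or astrocyte-like cells (2.02, SE 0.10, adjusted p = 1.65e-07; SD, n = 6 each). The groups were far apart for both genes. The 1 member that did not pass was Rpl7l1, with 59 ± 29 against 71 ± 29 CPM (0.05, adjusted p = 0.598). With total counts as the scale the median was 1.10.

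Microglia or macrophage-like cells had 72 of 80 members higher than radial glia or astrocyte-like cells and 0 lower, against 33.4% of all genes higher and 29.3% lower (median 0.90). Rpl10 had 2042 to 4124 CPM in microglia or macrophage-like cells, against 968 to 2701 CPM in radial glia or astrocyte-like cells, and at DIV1 the order was turned, with 2552 against 2701. Scaled by total counts, 38 members passed (median 0.47). In ciliated-like cells 76 of 79 were lower than in radial glia or astrocyte-like cells and 0 higher, against 28.8% of all genes lower and 21.8% higher (median -0.50). In choroid plexus epithelium-like cells 21 were lower and 0 higher, against 19.5% and 16.8% (median -0.18), and 5 with total counts as the scale. Without DIV3 replicate 2 the choroid plexus epithelium-like count was 7. In cycling cells 2 were higher and 5 lower, against 20.7% and 24.7%, and in oligodendrocyte lineage-like cells 4 were lower and 0 higher, against 21.6% and 13.9%, so both lay below the share of all genes. The count in cycling cells ran from 0 without DIV5 replicate 1 to 13 without DIV7 replicate 2.

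Glutamatergic neuron-like cells had 58 members lower than radial glia or astrocyte-like cells and 0 higher, against 35.8% of all genes lower and 34.8% higher (median -0.45, all genes -0.03). GABAergic neuron-like cells had 41 lower and 0 higher, against 34.7% and 23.6% (median -0.51, all genes -0.20). Rpl41 had 3718 to 7228 CPM (median 6407) in glutamatergic neuron-like cells, against 8034 to 13141 (median 9256) in radial glia or astrocyte-like cells (-0.83, SE 0.12, adjusted p = 0.000115). The ranges did not meet. In GABAergic neuron-like cells Rplp1, one of the acidic stalk proteins, averaged 2128 ± 355, against 3868 ± 1036 (-1.05, adjusted p = 0.000299), and X-linked Rps4x 1118 ± 176, against 1849 ± 206 (-0.94, adjusted p = 0.000143; SD, n = 7). Without DIV3 replicate 2 27 members passed in GABAergic neuron-like cells.

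To ask which members moved relative to the others, the summed member counts of each library and class were also used as its size. Against radial glia or astrocyte-like cells, 16 members took a higher and 9 a lower part of the member total in glutamatergic neuron-like cells (48.5% of all genes were higher and 23.6% lower on this scale), and 15 and 9 in GABAergic neuron-like cells (37.3% and 21.1%). In fibroblast-like cells the counts were 19 and 15 (7.39% and 83.6%), in microglia or macrophage-like cells 11 and 8 (12% and 54%), and in ciliated-like cells 8 and 10 (44.5% and 7.79%). Between DIV7 and DIV3 0 members passed on this scale in radial glia or astrocyte-like cells in edgeR (41% of all genes were higher and 1.18% lower), against 45 on the scale of all genes. At an unadjusted p under 0.05 there were 1 higher and 4 lower, and 6 passed with the replicate block and 7 without DIV3 replicate 2. In the other classes with calls there was 1 higher and 1 lower in ciliated-like cells (36.8% and 1.52% of all genes), 1 and 1 in choroid plexus epithelium-like cells (25.4% and 1.02%), 0 and 4 in cycling cells (40.3% and 2.08%), 3 and 3 in fibroblast-like cells (22.8% and 5.13%), and 0 and 1 in glutamatergic neuron-like cells (7.75% and 1.2%), where the 1 was Rps27l. With the replicate block 7, 5, 15, 11 and 2 members passed in these classes.

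**Figure D4:**
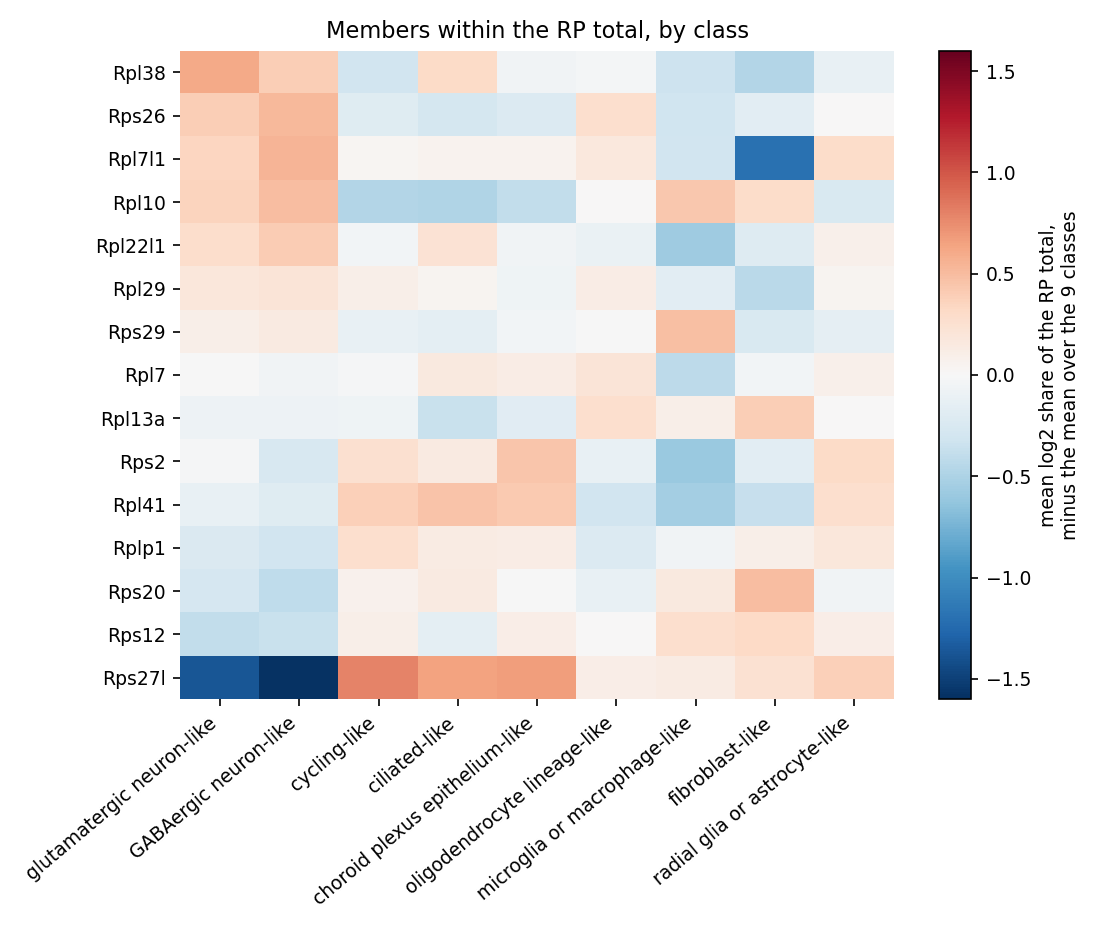
Level of a member in CPM of member UMIs, as log2 relative to its mean over 9 classes (colour, scale from -1.6 to 1.6), for 15 of the 16 members with at least 20 CPM that vary most. Rps27l is low in both neuron-like classes, and Rpl38 is high there and in ciliated-like cells.

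On this scale Rpl10 (0.63) and Rps20 (0.58) took more of the member total in fibroblast-like than in radial glia or astrocyte-like cells. Rps25 was higher in both neuron-like classes (0.32, adjusted p = 0.00415, in glutamatergic and 0.34 in GABAergic neuron-like cells). Rpl41 was lower in both (-0.39 and -0.46), as was Rpl7l1 in fibroblast-like cells (-1.39, adjusted p = 3.42e-06). Rpl38, a small large-subunit protein whose loss disturbs skeletal patterning in mice, was picked after its values were seen. It held 21168 CPM of member UMIs in glutamatergic and 18333 in GABAergic neuron-like cells, with 17302 in ciliated-like cells. Radial glia or astrocyte-like cells had 12780 and fibroblast-like cells 10031. Over all cells Rpl38 differed between the DIV3 libraries, with 1434 and 3276 CPM of all UMIs. Over time, Rpl12 also lost ground among members between DIV7 and DIV3, by -0.92 in choroid plexus epithelium-like (edgeR adjusted p = 0.0155), -0.74 in cycling (adjusted p = 0.0148), -0.72 in fibroblast-like (adjusted p = 0.0268) and -0.58 in ciliated-like cells (adjusted p = 0.0367). Rps27 gained in fibroblast-like (0.92, edgeR adjusted p = 0.0348) and ciliated-like cells (0.60, adjusted p = 0.0451). Neither call was kept with the DIV3 and DIV7 libraries alone. With 1 library left out at a time the gains ran from 0.52 to 1.49 and from 0.26 to 1.04. Over all cells Rps27 had 1825 and 3803 CPM of all UMIs at DIV3, and 3137 and 3340 at DIV7, so the days overlapped there.

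Rps27l, a paralog of the small subunit protein Rps27 and a p53 target in human cells, set neuron-like cells most apart. In glutamatergic neuron-like cells it had 471 CPM at DIV1, 325 and 275 at DIV3, then 209 and 274 at DIV5, and 155 and 158 at DIV7. In radial glia or astrocyte-like cells of the same libraries it had 1310 at DIV1, 1717 and 1433 at DIV3, then 1210 and 614 at DIV5, and 1334 and 521 at DIV7. The highest neuron-like value was below the lowest value of radial glia or astrocyte-like cells (log2 difference -2.20, SE 0.22, edgeR adjusted p = 5.99e-06). GABAergic neuron-like cells had 399, then 307 and 350, 144 and 232, and 147 and 112 on the same days (-2.51, SE 0.23, adjusted p = 7.22e-09). Relative to the member total the differences were -1.75 (adjusted p = 2.84e-05) and -1.95 (adjusted p = 3.63e-06).

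Rps27l also fell between DIV7 and DIV3 within the neuron-like classes, with 157 ± 2 against 300 ± 36 CPM in glutamatergic (-0.93, SE 0.20, edgeR adjusted p = 0.0213) and 129 ± 25 against 328 ± 30 in GABAergic neuron-like cells (-1.21, SE 0.31, adjusted p = 0.0411; SD, n = 2 each). It was lower in 2 of 2 DIV7 libraries in each class. The GABAergic call was lost in DESeq2 and without any 1 of the DIV3 or DIV7 libraries, and the glutamatergic call without DIV3 replicate 1, DIV7 replicate 1 or DIV7 replicate 2 and under the stricter cell limits. Its partner Rps27 showed no such fall between the days: glutamatergic neuron-like cells had 1809 and 1857 CPM at DIV7, against 1208 and 1967 at DIV3. The low DIV3 replicate 1 value enters the ratios below. Summed over libraries, Rps27 too was lower in glutamatergic neuron-like (1620 CPM) than in radial glia or astrocyte-like cells (2494), beside 291 and 1194 for Rps27l. As a percentage of Rps27, Rps27l stood at 24.7% at DIV1, 26.9% and 13.96% at DIV3, then 12.5% and 17.4% at DIV5, and 8.58% and 8.52% at DIV7 in glutamatergic neuron-like cells. In cycling cells the same ratio was 103% and 43.7% at DIV3, then 52.9% and 42.5% at DIV5, and 57.6% and 40.1% at DIV7. Rps27 has processed pseudogenes, as have most members, and how the counting treated reads shared with them is not given in the sources used here.

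**Figure D5:**
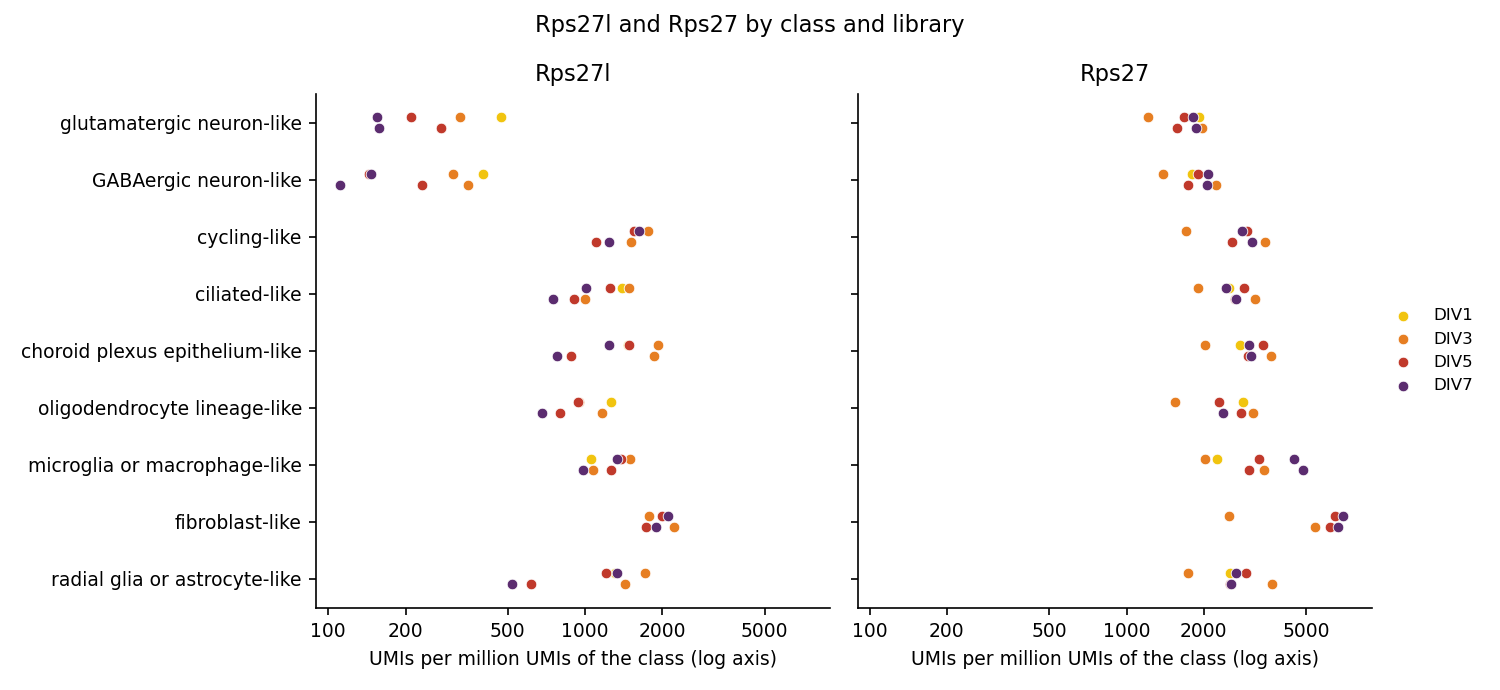
Level of Rps27l and of Rps27 (horizontal axis, CPM, log scale) in each library of 9 classes (1 line of points each, replicates set apart vertically), coloured by day in vitro. For Rps27l the glutamatergic neuron-like libraries lie between 155 and 471 and those of radial glia or astrocyte-like cells between 521 and 1717.

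The other paralogs were each concentrated differently. Rpl39l, which in mice is best known from male germ cells, had 144 UMIs in microglia or macrophage-like cells (10.2 CPM, present in 7 of 7 libraries) and 9 in radial glia or astrocyte-like cells (0.0885 CPM). Fibroblast-like cells had 103 (1.74 CPM), and GABAergic neuron-like cells 0, which allows up to 0.902 CPM. Rpl3l, the heart and skeletal muscle paralog of Rpl3, had 58 UMIs in all, of which 25 were in microglia or macrophage-like cells. Rpl22l1, the paralog of Rpl22, followed the library more than the day: over all cells it had 855 CPM at DIV1, 720 and 762 at DIV3, then 1279 and 653 at DIV5, and 1162 and 603 at DIV7. At DIV5 and DIV7 replicate 1 was the higher, and fibroblast-like cells had the same order, with 2257 and 959 at DIV5 and 1690 and 929 at DIV7. Rps29 followed it the other way, with replicate 2 higher on each day: 2050 and 5535 CPM at DIV3, then 3358 and 4713 at DIV5, and 3367 and 5045 at DIV7.

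Other genes of protein synthesis were counted from lists set by their known roles. Mitochondrial ribosomal proteins, which build the separate ribosome of mitochondria, were lower at DIV7 than at DIV3 for 52 of 77 tested in radial glia or astrocyte-like cells (median -1.16; 6.7% of all genes), 61 in cycling (10.8% of all genes) and 55 in fibroblast-like cells (-0.96; 12.4%), and 1 in glutamatergic neuron-like cells (2.94%). Ribosome biogenesis factors were lower for 20 of 54 in radial glia or astrocyte-like (-0.86), 36 in fibroblast-like and 0 in glutamatergic neuron-like cells (edgeR). Of the translation elongation and other TOP mRNAs 5 of 19 were lower in radial glia or astrocyte-like cells (-0.47), and of the initiation factors 10 of 34. Among regulators of mTORC1 and MYC 1 of 20 was higher and 3 lower, against 5.99% and 6.7% of all genes. Rpsa, a small subunit protein outside the symbol pattern, had 961 CPM at DIV7, against 2920 at DIV3 (-1.72, adjusted p = 0.0238).

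Against radial glia or astrocyte-like cells, all 18 TOP mRNAs tested were higher in fibroblast-like cells (median 1.43; 36.2% of all genes were higher), led by the nucleolar chaperone Npm1 (2.20) and the elongation factors Eef1b2 (1.93) and Eef1a1 (1.79). Biogenesis factors were higher for 43 and lower for 2 there, while mitochondrial ribosomal proteins moved less (35 higher, 4 lower, median 0.19). In glutamatergic neuron-like cells 5 TOP mRNAs were higher and 2 lower of 19 (0.16), the other side of 0 from the members' median of -0.45, and 29 of 77 mitochondrial ribosomal proteins were lower and 6 higher. With 35.8% of all genes lower and 34.8% higher there, the counts of both lists lay near or below the share of all genes. In ciliated-like cells 15 of 18 TOP mRNAs were lower, against 28.8% of all genes. These comparisons share the same radial glia or astrocyte-like libraries. Counts were scaled to each class's own total in a library, so these comparisons give relative levels and not RNA per cell.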

How the data were processed

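The authors deposited raw UMI counts as 1 gene-by-barcode matrix for each library. Per the file headers, the values are integers and the writing software had version 3.0.2. Per the submitters' processing notes the authors ran Cell Ranger 4.0.0 with the mm9 genome. Whether counting used strand or how it treated reads shared with pseudogenes is not given in the sources used here. Libraries follow the single-cell 3′ version 2 chemistry, per the labels' protocols. Depth per library is in the text above. Printed floors (3 UMIs) cover counting error only, whereas SDs are between libraries and SEs come from the edgeR fits.

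The limits of 500 genes and 10% mitochondrial UMIs kept 26709 of 28846 barcodes. Scrublet called 340 barcodes (1.18%), which were not removed; removal of the 942 highest scores is an alternative. Clusters (scanpy 1.11.5, leidenalg 0.10.2) used 2000 variable genes without the members, 30 principal components, 15 neighbours and resolution 1, giving 37 clusters. A cluster was named where its mean score over a class's markers, of which at least 3 had to reach 50 CPM, was at least 1 and 0.5 above the next class. The naming thresholds were chosen with the clusters in view, ahead of the tests of members. The members and gene lists were chosen with earlier results of these data known.

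Counts were summed per library and class with at least 20 cells, filtered with filterByExpr, scaled by TMM and tested with edgeR 4.0.16 (quasi-likelihood, robust; R 4.3.3) over all genes, with Benjamini-Hochberg adjustment. Day comparisons used all libraries of a class, and class comparisons had library as a term. DESeq2 1.42.0 was an alternative. Named members are all those past an adjusted p of 0.05 where at most 10 passed, otherwise up to 5 of the largest changes each way with at least 20 CPM and no overlap between groups. The 5 highest and 5 lowest detected members, the paralogs and their partners, and Rps6, Rps4x and the stalk proteins were also followed. Of other lists the 3 smallest p were named. Shares were tested by exact permutation (scipy 1.17.1; Python 3.11.15). The labels do not say whether replicate numbers pair the samples. Over all genes, replicate differences correlated at 0.413 (DIV3 with DIV5), 0.246 (DIV3 with DIV7) and 0.593 (DIV5 with DIV7). Over members the values were 0.035, 0.209 and 0.803. A fit with the number as a block is given as an alternative where it changes a call. In simulated counts, edgeR recovered 29% of changes of 2-fold and 99% of 4-fold between DIV7 and DIV3 in radial glia or astrocyte-like cells (14467 genes). For glutamatergic neuron-like against radial glia or astrocyte-like cells (12739 genes) it recovered 93% and 100%. The simulation gave every gene a dispersion of 0.05, changed only genes with over 20 expected counts and added no library or cluster effects. The common dispersion fitted to the real counts was larger in both comparisons, so these rates are not the power of the tests above. Some members and related genes are not reported here by name; counts and shares include them.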

Additional observations from a re-analysis of the deposited data

Results flagged for a closer look

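In 4 classes the difference in member share from radial glia or astrocyte-like cells of the same library changed with day, by an exact permutation test of Pearson's r over 7 libraries, with p adjusted over 8 classes. It rose in microglia or macrophage-like cells (r = 0.973, adjusted p = 0.00847), in GABAergic neuron-like cells (r = 0.944, adjusted p = 0.00847), in glutamatergic neuron-like cells (r = 0.915, adjusted p = 0.00847) and in ciliated-like cells (r = 0.822, adjusted p = 0.0381). In ciliated-like cells the difference was -2.29 and -0.748 points at DIV7 and -6.79 points at DIV1, and Spearman's rho did not pass (adjusted p = 0.0762). There r did not pass either without DIV1 (r = 0.63, exact permutation p adjusted 0.237), nor without DIV3 replicate 2, DIV5 replicate 1, DIV5 replicate 2 or DIV7 replicate 2 (adjusted 0.0556 to 0.133). In the other 3 classes the adjusted exact p was 0.0593 without DIV1, where 6 libraries allow no exact p under 0.0222 before adjustment. All 4 differences share the radial glia or astrocyte-like share, which fell with day, and they are not independent of each other. For choroid plexus epithelium-like cells r was 0.75 (adjusted p = 0.0711).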

How the results depend on the processing

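Of the named members' values under the alternatives, 1155 kept their direction and side of the threshold, 293 kept their direction and lost the call, and 0 turned round; the cause of the changes below was not tested. The fit on library sizes set to the summed member counts answers another question and is in the text; it gave 2 called members (DIV7 against DIV3) in choroid plexus epithelium-like, 2 in ciliated-like, 4 in cycling, 6 in fibroblast-like, 0 in GABAergic, 1 in glutamatergic neuron-like and 0 in radial glia or astrocyte-like cells. Against radial glia or astrocyte-like cells it gave 6 in choroid plexus epithelium-like, 18 in ciliated-like, 34 in fibroblast-like, 24 in GABAergic, 25 in glutamatergic neuron-like, 19 in microglia or macrophage-like and 8 in oligodendrocyte lineage-like cells. Counts below are of called members, in the order of each sentence's classes. Shares of all genes under these alternatives are not given, so a larger or smaller count is not a result about the members alone.

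Scaling by total counts gave 17 in cycling and 9 in fibroblast-like cells between DIV7 and DIV3, and 5 in choroid plexus epithelium-like, 3 in cycling and 38 in microglia or macrophage-like cells against radial glia or astrocyte-like cells. TMM moved the members' medians relative to total counts by 0.35 in fibroblast-like and 0.43 in microglia or macrophage-like cells against radial glia or astrocyte-like cells; the medians of cycling (0.09) and oligodendrocyte lineage-like cells (0.09) were then above 0. DESeq2 gave 0 in GABAergic neuron-like cells between DIV7 and DIV3 and 4 in radial glia or astrocyte-like cells between DIV3 and DIV1. Without a filter on low counts DIV7 against DIV3 gave 37 in choroid plexus epithelium-like, 31 in fibroblast-like, 17 in glutamatergic neuron-like and 2 in microglia or macrophage-like cells, DIV3 against DIV1 gave 1 in glutamatergic neuron-like cells, and 45 in choroid plexus epithelium-like and 3 in cycling cells passed against radial glia or astrocyte-like cells. Within the member total the same setting gave 4 in ciliated-like, 11 in fibroblast-like, 1 in GABAergic, 4 in glutamatergic neuron-like, 3 in microglia or macrophage-like and 1 in radial glia or astrocyte-like cells (DIV7 against DIV3), and 9 in ciliated-like, 3 in cycling, 12 in microglia or macrophage-like and 5 in oligodendrocyte lineage-like cells (against radial glia or astrocyte-like cells). With the DIV3 and DIV7 libraries alone 17 passed in cycling and 2 in glutamatergic neuron-like cells, and within the member total 0 in ciliated-like, 3 in fibroblast-like, 1 in GABAergic, 0 in glutamatergic neuron-like and 1 in radial glia or astrocyte-like cells.

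With at least 1000 genes and at most 5% mitochondrial UMIs, r with day was 0.19 over all cells, the opposite sign, -0.80 in GABAergic, -0.75 in glutamatergic neuron-like, -0.93 in choroid plexus epithelium-like and -0.85 in oligodendrocyte lineage-like cells. Differences from radial glia or astrocyte-like cells were -0.284 points in cycling and -0.898 points in oligodendrocyte lineage-like cells, both turned round, and r of the difference with day was 0.83 (GABAergic), 0.87 (glutamatergic neuron-like) and 0.56 (ciliated-like). These limits gave 1 in choroid plexus epithelium-like, 30 in ciliated-like, 19 in cycling, 0 in glutamatergic neuron-like and 24 in radial glia or astrocyte-like cells between DIV7 and DIV3, 41 in choroid plexus epithelium-like, 69 in GABAergic and 21 in oligodendrocyte lineage-like cells against radial glia or astrocyte-like cells, and within the member total 1, 4, 2 and 0 in the first 4 of these and 11 in choroid plexus epithelium-like cells against radial glia or astrocyte-like cells. Leiden resolution 2 gave r = -0.89 in oligodendrocyte lineage-like cells, r = 0.72 for the ciliated-like difference, 11 in choroid plexus epithelium-like and 4 in cycling cells against radial glia or astrocyte-like cells, and within the member total 8 in ciliated-like and 1 in radial glia or astrocyte-like cells between days and 11 in ciliated-like cells against radial glia or astrocyte-like cells. Clustering with the members gave 19 in cycling cells. Averaging over cells gave r = -0.85 over all cells, -0.54 in GABAergic neuron-like, -0.93 in cycling cells and 0.78 for the choroid plexus epithelium-like difference; without mitochondrial UMIs r was -0.80 in GABAergic neuron-like cells. Removing the top Scrublet scores gave r = -0.72 in GABAergic neuron-like cells and, within the member total, 1 in choroid plexus epithelium-like, 1 in GABAergic and 0 in glutamatergic neuron-like cells.

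With the replicate number as a block, permuted within replicates of DIV3, DIV5 and DIV7 (smallest p 0.0556), r was -0.96 in radial glia or astrocyte-like, -0.98 in ciliated-like, -0.97 in choroid plexus epithelium-like, -0.69 in glutamatergic and -0.79 in GABAergic neuron-like, -0.82 in oligodendrocyte lineage-like and 0.76 in microglia or macrophage-like cells, a design too small to pass. The replicate block gave 39 in choroid plexus epithelium-like, 35 in fibroblast-like and 8 in glutamatergic neuron-like cells, and within the member total 5 in choroid plexus epithelium-like, 7 in ciliated-like, 15 in cycling, 11 in fibroblast-like, 2 in glutamatergic neuron-like and 6 in radial glia or astrocyte-like cells. It changed no other count by over 1.5 times.

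Leaving out 1 library at a time, r ran from -0.96 to -0.65 over all cells, -0.99 to -0.96 in radial glia or astrocyte-like, -0.98 to -0.96 in ciliated-like, -0.97 to -0.94 in choroid plexus epithelium-like, -0.99 to -0.85 in cycling, -0.93 to -0.69 in glutamatergic and -0.88 to -0.74 in GABAergic neuron-like, -0.95 to -0.82 in oligodendrocyte lineage-like and 0.76 to 0.95 in microglia or macrophage-like cells. Without DIV1 the exact permutation p, adjusted over classes, was 0.0667 in radial glia or astrocyte-like, ciliated-like and choroid plexus epithelium-like cells. It was 0.1 in GABAergic and 0.15 in glutamatergic neuron-like cells, and 0.129 in microglia or macrophage-like and oligodendrocyte lineage-like cells. None of these passed, where 6 libraries allow no exact p under 0.0222 before adjustment. The GABAergic call was also lost without DIV3 replicate 2, DIV5 replicate 2 or DIV7 replicate 1, the oligodendrocyte lineage-like one without DIV3 replicate 2, DIV5 replicate 1 or DIV7 replicate 2, the glutamatergic one without DIV7 replicate 1 and the microglia or macrophage-like one without DIV7 replicate 2. The mean difference from radial glia or astrocyte-like cells ran from -0.657 to 0.345 points in choroid plexus epithelium-like cells (above 0 without DIV1) and from -0.473 to 0.525 points in oligodendrocyte lineage-like cells (below 0 without DIV5 replicate 2, and at -0.0617 without DIV7 replicate 2). The difference's r with day ran from 0.89 to 0.97 (GABAergic), 0.43 to 0.89 (choroid plexus epithelium-like), 0.63 to 0.90 (ciliated-like), 0.89 to 0.94 (glutamatergic neuron-like) and 0.96 to 0.98 (microglia or macrophage-like). Counts between DIV7 and DIV3 ran from 0 to 41 in radial glia or astrocyte-like, 0 to 49 in ciliated-like, 1 to 54 in cycling, 0 to 20 in choroid plexus epithelium-like, 0 to 27 in fibroblast-like, 0 to 31 in glutamatergic and 0 to 1 in GABAergic neuron-like and 0 to 1 in microglia or macrophage-like cells, and between DIV3 and DIV1 from 0 to 3 in glutamatergic neuron-like cells. Against radial glia or astrocyte-like cells they ran from 7 to 31 in choroid plexus epithelium-like, 0 to 13 in cycling and 27 to 51 in GABAergic neuron-like cells. Within the member total they ran from 0 to 7 in radial glia or astrocyte-like, 0 to 9 in ciliated-like, 1 to 14 in cycling, 0 to 7 in choroid plexus epithelium-like, 1 to 16 in fibroblast-like, 0 to 17 in glutamatergic and 0 to 6 in GABAergic neuron-like and 0 to 1 in microglia or macrophage-like cells between DIV7 and DIV3, 0 to 2 in glutamatergic neuron-like cells between DIV3 and DIV1, and 3 to 6 in choroid plexus epithelium-like, 8 to 17 in ciliated-like, 1 to 9 in cycling, 11 to 25 in microglia or macrophage-like and 4 to 15 in oligodendrocyte lineage-like cells against radial glia or astrocyte-like cells.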

Other observations

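Classes too sparse for a test also held members. Cajal-Retzius-like cells, early-born neurons marked by Reln, had 14.7% of UMIs in members at DIV1 (160 cells), 12.1% and 11.97% at DIV5 (41 and 32 cells) and 11.2% in DIV7 replicate 1 (44 cells), below radial glia or astrocyte-like cells in each of these libraries. Intermediate progenitor or neuroblast-like cells, led by Tac2, Eomes and Emx1, had 18.4% at DIV1 (253 cells) and 18.8% in DIV5 replicate 2 (37 cells). This was below the 22.8% of radial glia or astrocyte-like cells at DIV1 and above their 13.4% in DIV5 replicate 2. Mural-like cells had 19.1% and 19.9% at DIV3 and 18.6% in DIV5 replicate 1.

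The unnamed cells had 15.4% at DIV1, 17.4% and 18.6% at DIV3, then 14.8% and 18.0% at DIV5, and 11.2% and 13.9% at DIV7. Among them was a cluster of 847 cells led by Sst, mostly from DIV1, with 13.6% at DIV1.

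Of 79 members compared over all cells, 23 were higher in replicate 2 than in replicate 1 on each of the 3 days with 2 libraries, and 12 were lower on each. Rps29 had the log2 differences 1.43, 0.49 and 0.58 at DIV3, DIV5 and DIV7.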
